A study of Homo sapiens with 54 samples.

Results

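Cells of the prostate cancer line PC3 and the breast cancer line MDA-MB-231 that had survived cisplatin were compared 1 day after the drug was removed. The comparison rests on the 6 ATAC-seq peak lists of that day, 3 for PC3 and 3 for MDA-MB-231, out of 18 lists in the series (18 of its 54 samples). They were taken by the cell line and time in the labels, so no measured value chose them. PC3 came from a bone metastasis of a prostate cancer and lacks p53, and MDA-MB-231 came from the pleural fluid of a patient with a triple-negative breast cancer and carries a mutant p53. The groups are PC3 1 day after cisplatin (1DPTR), MDA-MB-231 1 day after cisplatin, untreated PC3 and untreated MDA-MB-231. Lists of both lines 10 days after removal (10DPTR) were in none of the contrasts below. They did enter the scaling, filter and fit of the gene values and the merging of regions, so they are not an independent check. Each line is 1 established culture, so its replicates sample that culture and not a tumour type. The labels name no dose or length of treatment. Each biological replicate was divided into 3 experimental replicates before tagmentation, and 1 peak list stands for each biological replicate, so n = 3 lists in each group. Nothing in the labels says that the biological replicates were separate cultures, and p-values measure the spread between these lists, which may be technical.

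ATAC-seq uses a transposase that inserts adapters where DNA is not wrapped in nucleosomes, so a peak marks an accessible stretch such as a promoter or an enhancer. Accessible enhancers are largely specific to a cell type, while most promoters of widely used genes are open in every cell. Cisplatin crosslinks guanines within and between DNA strands, and cells remove these adducts by nucleotide excision repair and by the Fanconi anaemia and recombination pathways. The question here is which accessibility differences between the lines were present in the survivors and which of them the untreated cells lacked.

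A larger share of peaks lay between genes in PC3 survivors than in MDA-MB-231 survivors. Peaks covered 76.5, 81.3 and 80.7 Mb in the PC3 day 1 lists, against 67.4, 69.4 and 75.2 Mb in the MDA-MB-231 day 1 lists, so the groups did not overlap. Of the peaks, 46.4 ± 0.272% lay between protein-coding genes in PC3 and 41.8 ± 0.406% in MDA-MB-231 (SD, n = 3 each), and 12.3 ± 0.953% and 14.9 ± 0.893% lay within 1 kb of a gene end. Both shares also separated the lines in control, where 44.8 ± 0.331% and 38.9 ± 0.101% of peaks lay between genes. Covered length did not separate the controls, at 65.2 ± 2.65 Mb in PC3 and 63.7 ± 8.49 Mb in MDA-MB-231. Each of these day 1 differences gave a two-sided exact permutation p of 0.1, the smallest that 3 lists against 3 allow. Peak numbers overlapped at day 1, with 164802, 115050 and 134906 peaks in PC3 and 133526, 100564 and 120254 in MDA-MB-231 (exact permutation p = 0.4). They separated the lines in control, with 114731, 113631 and 106577 peaks in PC3 and 98777, 82392 and 87524 in MDA-MB-231 (exact permutation p = 0.1). Every control list thus held fewer peaks than any day 1 list of its line. Median peak widths were 346, 541 and 455 bp in PC3 and 350, 522 and 459 bp in MDA-MB-231 (exact permutation p = 1.0). Reduced to the 50000 peaks of highest area in each list, covered length was 47.2 ± 7.42 Mb in PC3 and 46.8 ± 4.55 Mb in MDA-MB-231, and the shares between genes still stood apart, at 40.7 ± 0.240% and 36.1 ± 0.550%. The lists hold no read counts, so their depth is unknown. Day 1 lists of the same line overlapped over 65.2% to 75.4% of the length that either covered in PC3 and from 71.1% to 79.9% in MDA-MB-231, while a PC3 and an MDA-MB-231 day 1 list overlapped over 42.5% to 46.3%.

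**Figure D1:**
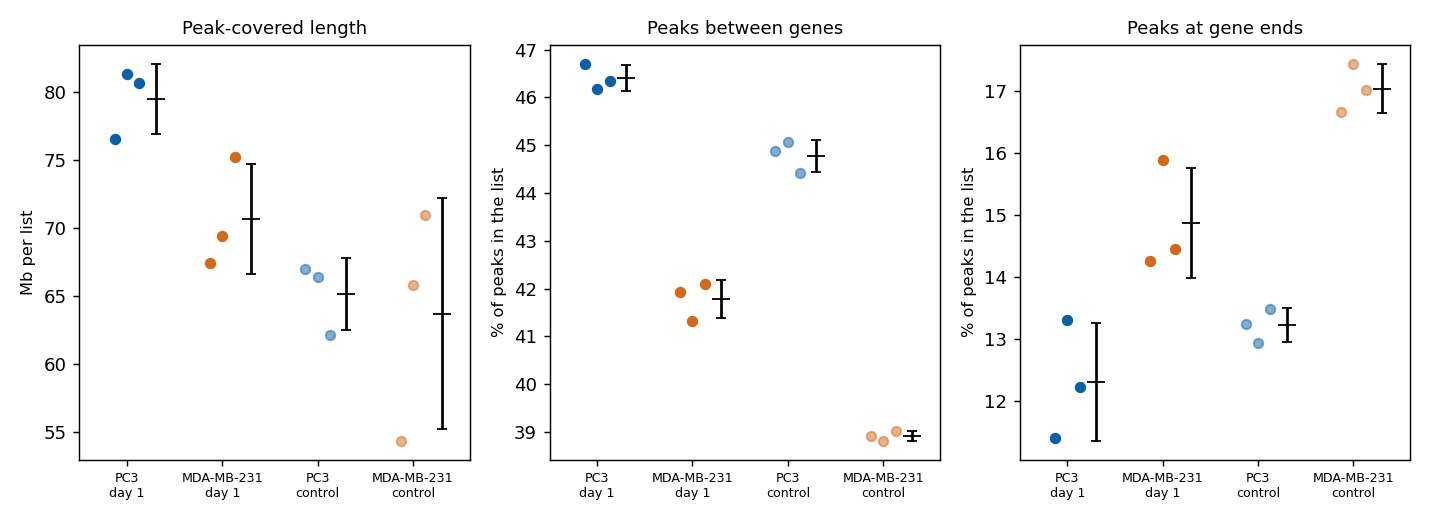
Peak-covered length (Mb), share of peaks between protein-coding genes (%) and share within 1 kb of a gene end (%), with 1 point per list and the mean ± SD of 3 lists beside it. Covered length separates the lines at day 1, where PC3 averaged 79.5 Mb and MDA-MB-231 70.7 Mb, and both shares separate them at day 1 and in control.

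Accessibility around each gene was measured as the length covered by peaks over the gene body and 10 kb on either side, scaled to the mean total of the lists, in 16816 protein-coding genes. Line differences were tested with limma on log2(length + 500 bp), and a call means a Benjamini-Hochberg adjusted p under 0.05 over all these genes. Log2 differences are on that scale and understate the change of genes with little covered length. At day 1, 3434 genes were higher in PC3 (20.4%) and 7155 were lower (42.5%), with a median difference of -0.19. In control, 3527 were higher (21.0%) and 7443 lower (44.3%), with a median of -0.20. Scaling by the median ratio of the genes moved the day 1 median to 0.01 and the counts to 5114 higher and 4850 lower, so the excess of lower calls depends on the scaling. The day 1 groups did not overlap in 69.2% of the genes. Of the day 1 calls, 2773 of the genes higher in PC3 (80.8%) and 6060 of those lower (84.7%) were called the same way in control.

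The widest day 1 differences were of this kind, and several were genes without any peak in 1 line. STAT3, a transcription factor of cytokine signalling on chromosome 17 (42313324 to 42388442, GRCh38), had 0 kb in all 3 PC3 day 1 lists, against 9.89, 8.95 and 10.1 kb in MDA-MB-231. Its neighbour STAT5B, of the same family, had 0 kb in PC3 and 8.43, 8.88 and 8.80 kb in MDA-MB-231. TSPAN14, a tetraspanin gene on chromosome 10, was listed at 0 in the PC3 lists and had 15.9, 14.4 and 14.2 kb in the MDA-MB-231 lists. All 3 were at 0 in the PC3 control lists as well. In the other direction SH3GL2, which encodes an endocytic protein on 9p, had 6.77, 6.71 and 6.34 kb in PC3 day 1 lists and 0 kb in all MDA-MB-231 lists of that day. DCC, the netrin receptor gene on 18q, had 6.85, 6.26 and 6.29 kb in PC3 and was at 0 in MDA-MB-231. GFRA1, the receptor gene of the glial cell line-derived neurotrophic factor GDNF, had 0.797, 0 and 0.232 kb in PC3 against 16.8, 21.5 and 21.4 kb in MDA-MB-231 (log2 difference -4.70 ± 0.25, SE, limma adjusted p = 1e-10). TMEM132D averaged 0.910 ± 0.480 kb in PC3 and 22.2 ± 0.124 kb in MDA-MB-231, and L3MBTL4 averaged 9.29 ± 1.84 kb and 0.334 ± 0.0167 kb.

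Lower copy number and lower accessibility cannot be told apart in peak lists. Among tumour suppressor loci, CDKN2A, CDKN2B and their neighbour MTAP on 9p, a stretch that MDA-MB-231 is known to have lost, had 2.38 ± 0.396, 3.34 ± 0.405 and 4.76 ± 0.492 kb in PC3 day 1 lists and 0 kb in every MDA-MB-231 list of day 1 and control. RNLS, on 10q, was at 0 in PC3 at day 1 and in control, against 6.03, 7.14 and 7.15 kb in MDA-MB-231 at day 1. CTNNA1, the alpha-catenin gene, averaged 2.44 ± 0.157 kb in PC3 and 8.79 ± 0.413 kb in MDA-MB-231. Of the 14 genes tested in that list, 5 were higher (35.7%) and 7 lower (50.0%) in PC3, against 20.4% and 42.5% of all genes. With median-ratio scaling 5 were higher and 5 lower. Medians by chromosome arm ran from -0.73 (9q, 487 genes) to 0.54 (8q, 370 genes) at day 1 and from -0.69 to 0.45 for the same arms in control, while the medians of the difference between the 2 states stayed between -0.093 and 0.10.

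A day 1 difference was counted as absent from control where the day 1 difference and the interaction (the day 1 difference minus the control difference) were both called with the same sign and control was not called that way. This held for 59 genes higher in PC3 (0.351%) and 139 lower (0.827%), out of 312 genes with a positive interaction (1.86%) and 579 with a negative one (3.44%). In the plot of day 1 against control differences these genes are coloured. Of them, 4 of the 59 and 9 of the 139 reached the filter of 500 bp in 3 lists only with the 3 day 1 lists in which they are high, so their call says nothing beyond the filter, and no p is given for those named below. In the 139 genes the larger shift from control lay in MDA-MB-231 for 118, with a median day 1 minus control change of 0.78 in MDA-MB-231 and -0.018 in PC3 on the log2 scale. In the 59 genes it lay in PC3 for 44, with medians of 0.45 in PC3 and -0.14 in MDA-MB-231. In control, 33 of the 139 and 12 of the 59 were called in the opposite direction. At day 10, 116 of the 139 and 52 of the 59 kept the sign, and 89 and 42 of them had lists that did not overlap between the lines. The share of all genes with such day 10 lists was not counted, and at day 1 it was 69.2%. These counts are therefore not read as persistence. Fitted on day 1 and control lists alone, 114 of the 139 and 46 of the 59 were counted again. Leaving out each of the 12 day 1 and control lists in turn, 61 of the 139 and 19 of the 59 were counted every time. The count lower in PC3 was 81 without MDA-MB-231 day 1 replicate 3. The count higher in PC3 was 28 without that list, 30 without PC3 day 1 replicate 3, 32 without PC3 control replicate 2, 34 without MDA-MB-231 control replicate 2 and 30 without MDA-MB-231 control replicate 3. Cut to the 50000 peaks of highest area, the lists gave 97 genes lower and 55 higher, and these held 12 of the 139 and 4 of the 59, while 71 and 37 kept the sign of both the day 1 difference and the interaction.

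**Figure D2:**
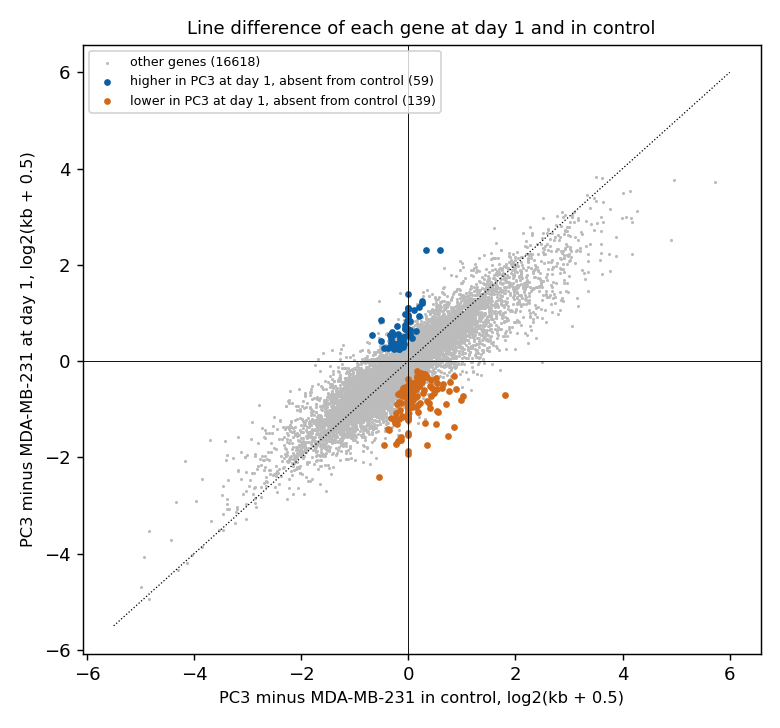
Each point is 1 of 16816 genes, with the PC3 minus MDA-MB-231 difference in control on the x axis and at day 1 on the y axis, both in log2(kb + 0.5). Most genes lie along the dotted line of equal differences, and the 59 and 139 coloured genes lie off it.

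Among genes higher in PC3 survivors and absent from control, several of the largest interactions held without each list. Apart from PABPC4, described below, these genes had almost no peaks elsewhere. FGF10, a growth factor that mesenchyme sends to epithelial buds, had 1.00, 0.577 and 0.892 kb in PC3 day 1 lists and 0 kb in every MDA-MB-231 day 1 list and every control list (interaction, limma adjusted p = 0.000758). CSTA, the gene of cystatin A, a protease inhibitor of the epidermis, had 0.627, 0.554 and 0.545 kb in PC3 and 0 kb in the other 9 lists of day 1 and control. TCHHL1, of the epidermal differentiation complex on chromosome 1, had 0.584, 0.539 and 0.536 kb in PC3 and was also at 0 in the others (adjusted p = 0.000356). Each of these values amounts to about 1 peak. SIGLEC14, a sialic acid receptor of myeloid cells, had 0.793, 0.540 and 0.534 kb in PC3 against 0.0446, 0.0242 and 0 kb in MDA-MB-231, and 0 kb in both controls. FAM124B had 0.673, 0.684 and 0.625 kb in PC3, 0 kb in MDA-MB-231, and 0.335 kb in 1 PC3 control list (adjusted p = 0.0149).

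PABPC4, which encodes a cytoplasmic poly(A)-binding protein, was lower in the MDA-MB-231 day 1 lists than in that line's control lists. It had 1.38, 1.86 and 1.70 kb in PC3 day 1 lists and 1.04, 0.454 and 0.640 kb in MDA-MB-231 day 1 lists, against 2.29, 1.86 and 1.29 kb in PC3 control lists and 3.10, 2.75 and 2.46 kb in MDA-MB-231 control lists. Its log2 difference was 0.85 ± 0.22 at day 1 and -0.52 in control, with an interaction of 1.37 ± 0.31 (limma adjusted p = 0.0149). 3 further genes were picked after their values were seen. SRSF2, a splicing factor gene whose window overlaps its neighbours, averaged 7.09 ± 0.535 kb in PC3 and 4.86 ± 0.490 kb in MDA-MB-231 at day 1, and 5.67 ± 0.285 kb and 6.35 ± 0.141 kb in control (interaction 0.66 ± 0.11, adjusted p = 0.00152). CASP10, a caspase of death receptor signalling, averaged 2.98 ± 0.222 kb and 2.04 ± 0.277 kb at day 1, and 2.98 ± 0.0362 kb and 3.84 ± 0.305 kb in control (interaction 0.78 ± 0.13, adjusted p = 0.00152). FGF6, a growth factor of muscle, had 0.775, 0.819 and 0.633 kb in PC3 and 0.258, 0 and 0.237 kb in MDA-MB-231, with 0 kb in both controls.

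Among genes lower in PC3 survivors, the leading ones gained covered length in MDA-MB-231. CNPY1, which modulates FGF receptor signalling in zebrafish, had 2.04, 1.51 and 1.56 kb in PC3 day 1 lists and 3.35, 2.81 and 3.08 kb in MDA-MB-231 day 1 lists, against 1.83, 1.15 and 1.28 kb in PC3 control and 0.133, 0 and 0 kb in MDA-MB-231 control. Its line difference was -0.70 ± 0.16 at day 1 and 1.81 in control, in opposite directions (interaction -2.51 ± 0.23, limma adjusted p = 8.35e-06), although with the 50000 highest-area peaks the day 1 difference was 0.95. DNAH9, a dynein heavy chain of cilia, had 0.794, 0.383 and 0.991 kb in PC3 and 3.51, 2.42 and 3.14 kb in MDA-MB-231 at day 1, and the control lists held from 0.496 to 0.649 kb in PC3 and from 0 to 0.274 kb in MDA-MB-231 (interaction -2.28 ± 0.26, adjusted p = 8.11e-05). RCVRN, the recoverin gene of photoreceptors, had 1.40, 0.797 and 0.800 kb in PC3 against 2.11, 2.02 and 2.16 kb in MDA-MB-231. Its controls averaged 0.931 ± 0.0427 kb in PC3 and 0.251 ± 0.264 kb in MDA-MB-231 (interaction -1.81 ± 0.28, adjusted p = 0.00117), and it was called with the 50000 highest-area peaks too (-1.35, adjusted p = 1.91e-05).

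KRTAP10-12, a hair keratin-associated protein gene inside a cluster on chromosome 21, was at 0 in PC3 and had 1.08, 1.81 and 1.43 kb in MDA-MB-231 at day 1, with 0 kb in all 6 control lists (interaction, limma adjusted p = 8.67e-05). C13orf46 was likewise at 0 in PC3, in both controls and in all 6 day 10 lists, and had 1.25, 0.872 and 2.06 kb in the MDA-MB-231 day 1 lists. OPN1SW, the blue cone opsin gene, had 1.34, 0 and 0.311 kb in PC3 and 1.61, 1.96 and 1.98 kb in MDA-MB-231, against 0.451, 0.370 and 0.384 kb in PC3 control and 0 kb in MDA-MB-231 control (interaction adjusted p = 0.0062, and 0.0233 with the 50000 highest-area peaks). CLSTN2, a calsyntenin of synapses, averaged 0.930 ± 0.400 kb in PC3 and 1.83 ± 0.362 kb in MDA-MB-231, and its MDA-MB-231 control lists were at 0 (adjusted p = 0.000536). With the 50000 highest-area peaks CLSTN2 turned to a day 1 difference of 0.92 and an interaction of 0.61. CMYA5, a muscle gene, averaged 0.647 ± 0.576 kb and 2.07 ± 0.641 kb, and its control lists held 0.573, 0.750 and 0.582 kb in PC3 and 0.306, 0.233 and 0.326 kb in MDA-MB-231 (adjusted p = 0.0198), and its interaction did not pass without MDA-MB-231 day 1 replicate 1 (adjusted p = 0.0522). SLC22A12, the urate transporter gene of the kidney, averaged 0.617 ± 0.611 kb and 2.81 ± 0.388 kb, and its control lists held 0.241, 0.268 and 0.255 kb in PC3 and 0.319, 0 and 0 kb in MDA-MB-231 (adjusted p = 0.0228). That call was lost without MDA-MB-231 day 1 replicate 3 (adjusted p = 0.0628), MDA-MB-231 control replicate 2 (0.0572) or MDA-MB-231 control replicate 3 (0.0595).

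Several better known genes were among those that held without each list, and were picked after their values were seen. FGF2, a growth factor that many tumour cells secrete, had 0.692, 0.239 and 0.254 kb in PC3 day 1 lists and 2.03, 2.48 and 2.12 kb in MDA-MB-231 day 1 lists. Its control lists held 1.84, 1.71 and 1.73 kb in PC3 and 1.76, 2.25 and 2.00 kb in MDA-MB-231, so here the PC3 lists were the ones that moved (interaction -1.49 ± 0.23, limma adjusted p = 0.000906). LAMP1, a lysosomal membrane protein gene, averaged 2.47 ± 0.295 kb in PC3 and 4.79 ± 0.518 kb in MDA-MB-231, against 2.72 ± 0.176 and 2.10 ± 0.753 kb in control (interaction adjusted p = 0.00424). C1S, a complement protease gene, had 0.350, 0.281 and 0.408 kb in PC3 and 1.29, 1.45 and 1.34 kb in MDA-MB-231, against 0.283, 0.243 and 0.309 kb in PC3 control and 0.395, 0.344 and 0.310 kb in MDA-MB-231 control (interaction adjusted p = 0.000596, and 0.00231 with the 50000 highest-area peaks).

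**Figure D3:**
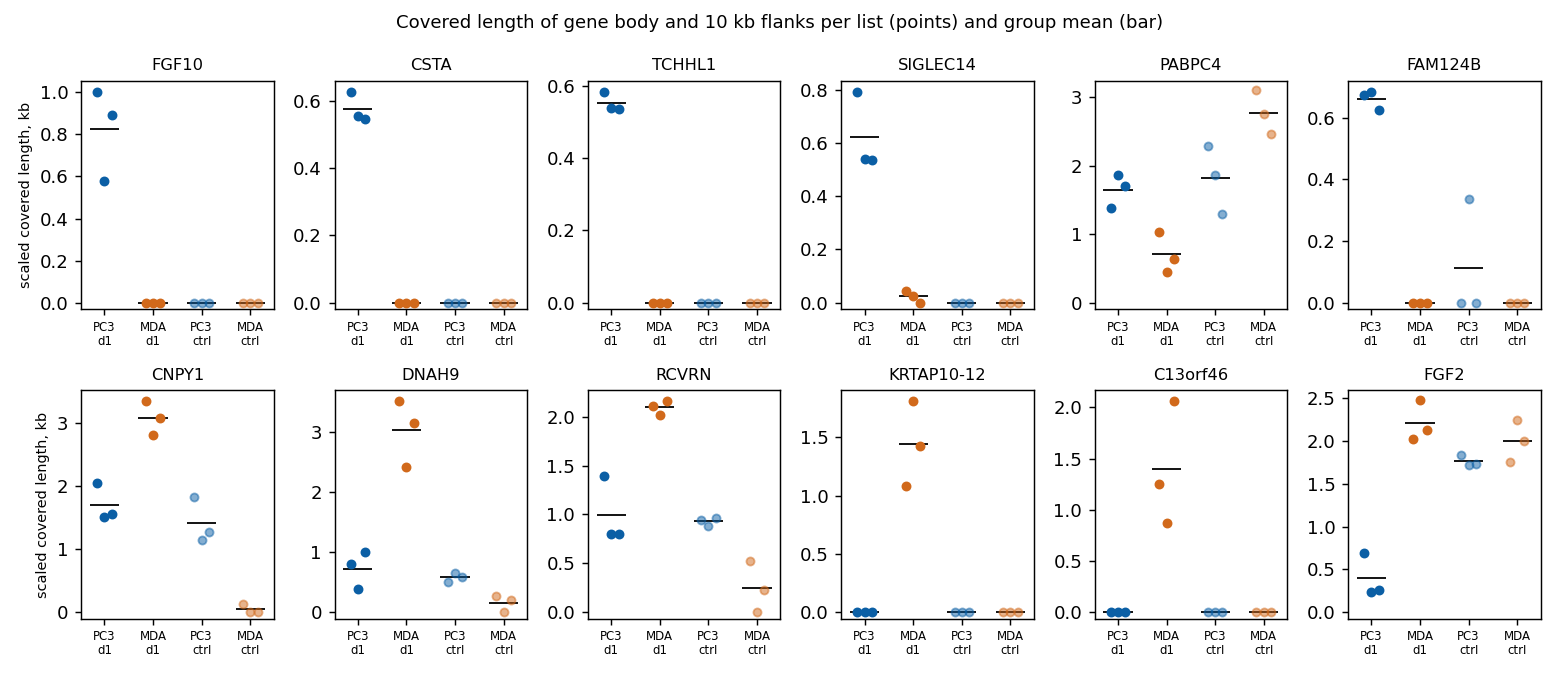
Scaled covered length in kb over gene body and 10 kb flanks for 12 genes, with 1 point per list and a bar at the mean of the 3 lists of PC3 day 1 (d1), MDA-MB-231 day 1, PC3 control (ctrl) and MDA-MB-231 control. In the upper row the 3 PC3 day 1 lists lie above the 3 MDA-MB-231 day 1 lists, and in the lower row they lie below.

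Most interactions described a line difference that was smaller at day 1 on the log2 scale, not one that appeared. In kb, the gap between the means below was smaller at day 1 for CNTNAP2 but not for MACROD2, NRXN3 or PKP1. Of the 579 genes with a negative interaction, 252 were higher in PC3 in both states and 120 were higher in control but not called at day 1. Of the 312 with a positive interaction, 150 were lower in PC3 in both states and 83 were lower in control but not called at day 1. MACROD2, a very large gene on 20p, averaged 56.3 ± 0.812 kb in PC3 and 3.90 ± 1.10 kb in MDA-MB-231 at day 1, and 52.8 ± 5.22 kb and 0.499 ± 0.0294 kb in control (interaction -2.01 ± 0.23, limma adjusted p = 0.000101). CNTNAP2, a neurexin family gene of neurons, averaged 18.0 ± 1.98 kb and 7.55 ± 1.02 kb at day 1, against 19.1 ± 0.534 kb and 2.44 ± 0.412 kb in control (interaction -1.54 ± 0.23, adjusted p = 0.000813). NRXN3 averaged 32.3 ± 1.68 kb and 7.67 ± 0.687 kb at day 1, against 24.7 ± 1.20 kb and 2.93 ± 0.637 kb in control (interaction -0.88 ± 0.16, adjusted p = 0.00335, and 0.0533 with unscaled lengths). PKP1, a plakophilin of desmosomes, averaged 20.3 ± 0.519 kb and 6.60 ± 0.364 kb at day 1, against 16.5 ± 1.58 kb and 3.33 ± 0.0546 kb in control (interaction -0.59 ± 0.14, adjusted p = 0.0175, and 0.252 with unscaled lengths).

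The prostate genes followed the line labels. Of 20 prostate genes tested, 12 were higher in PC3 and 3 lower at day 1, with a median log2 difference of 0.55 against -0.19 over all genes, and the control counts were 12 and 5. HOXB13, a homeobox factor of the prostate, had 10.8, 11.1 and 10.9 kb in PC3 against 0.502, 1.25 and 1.16 kb in MDA-MB-231 (log2 difference 3.00 ± 0.20, limma adjusted p = 1.75e-09). FOLH1, which encodes the prostate-specific membrane antigen, had from 0.577 to 0.631 kb in PC3 and 0 kb in MDA-MB-231. ACP3, the prostatic acid phosphatase gene, averaged 2.63 ± 0.0452 kb and 0.539 ± 0.247 kb. For KLK4 and KLK11, of the kallikrein cluster on 19q, the line difference was smaller in survivors, while KLK2 and KLK3 of the same list had no called interaction. KLK4 had 3.00, 3.81 and 3.35 kb in PC3 and 1.30, 1.14 and 1.09 kb in MDA-MB-231 at day 1, and 3.48 ± 0.0988 kb and 0.333 ± 0.0453 kb in control (interaction -1.05 ± 0.13, adjusted p = 0.000221). KLK11 averaged 4.31 ± 0.329 kb and 1.26 ± 0.0810 kb at day 1, and 5.13 ± 0.183 kb and 0.254 ± 0.221 kb in control (interaction -1.5 ± 0.28, adjusted p = 0.00463). In both genes the MDA-MB-231 lists of day 1 lay above those of control.

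Of 24 breast genes, 11 were higher (45.8%) and 6 lower (25.0%) in PC3, against 20.4% and 42.5% of all genes. This list did not follow its name. The luminal genes ESR1, the oestrogen receptor (14.1 ± 0.232 kb in PC3 and 7.11 ± 0.429 kb in MDA-MB-231), and ANKRD30A (3.61 ± 0.225 kb in PC3 and 0 kb in all MDA-MB-231 lists of that day) were higher in PC3. MUC1, a mucin of glandular epithelium, averaged 3.23 ± 0.133 kb and 5.96 ± 0.535 kb. PGR, the progesterone receptor gene, had 2.41, 2.05 and 1.77 kb in PC3 and 1.64, 1.28 and 0.649 kb in MDA-MB-231 at day 1, whereas all 3 MDA-MB-231 control lists were at 0 (interaction, limma adjusted p = 0.0117). Its day 1 difference (0.65 ± 0.25, adjusted p = 0.0318) did not pass without PC3 day 1 replicate 1 (0.104), PC3 day 1 replicate 2 (0.0625) or MDA-MB-231 day 1 replicate 3 (0.19). Of 28 epithelial genes, 8 were higher (28.6%) and 10 lower (35.7%), against 20.4% and 42.5% of all genes, and with median-ratio scaling 14 were higher and 6 lower. Among the 8 higher were GRHL2, an epithelial transcription factor, at 15.0 ± 1.44 kb and 6.03 ± 0.467 kb, and ESRP1, an epithelial splicing factor, at 6.02 ± 0.201 kb and 3.25 ± 0.134 kb. The 10 lower ones are not described, so GRHL2 and ESRP1 do not stand for the list. Of 28 mesenchymal genes, 6 were higher (21.4%) and 12 lower (42.9%), near the shares of all genes, and with median-ratio scaling 9 were higher and 7 lower. AXL, a receptor kinase, averaged 7.49 ± 0.313 kb in PC3 and 16.7 ± 0.512 kb in MDA-MB-231 and the gelatinase gene MMP2 was at 0 in PC3 against 4.49, 2.08 and 2.52 kb. TWIST1, a mesenchymal transcription factor, was higher in PC3, with 1.65 ± 0.153 kb in PC3 and 0 kb in MDA-MB-231. Blood cell markers (3 higher and 3 lower of 9 tested, 33.3% each) summed to between 26.6 and 27.7 kb in PC3 lists and between 32.7 and 34.3 kb in MDA-MB-231 lists, with HBB at 0 in PC3. Endothelial markers (2 higher and 2 lower of 9, 22.2% each) summed to between 35.0 and 41.7 kb and between 33.9 and 34.4 kb, with none at 0. The part of other cell types in these values was not tested.

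HOX genes, which set positional identity, gave the highest median of the 21 lists. Of 38 tested, 26 were higher in PC3 (68.4%, against 20.4% of all genes) and 5 lower (13.2%, against 42.5%). The median was 1.07, and control gave 28 and 5. Their windows overlap within each cluster, so they share peaks. HOXA7 had 4.70, 6.21 and 5.79 kb in PC3 and 0.679, 0.981 and 0.748 kb in MDA-MB-231 (log2 difference 2.22 ± 0.11, limma adjusted p = 2.77e-11), and HOXA5 averaged 3.98 ± 0.437 kb and 0.628 ± 0.104 kb. HOXD1 was the other way, at 0 in PC3 and 2.73, 2.5 and 2.42 kb in MDA-MB-231. Of 15 AP-1 genes, transcription factors of the stress and growth response, 1 was higher and 9 lower. MAFK averaged 4.12 ± 0.260 kb in PC3 and 10.5 ± 0.499 kb in MDA-MB-231 and FOSB 3.54 ± 0.159 kb and 5.73 ± 0.495 kb. ATF3, which stress induces, was the 1 gene higher, with 10.9, 12.3 and 11.9 kb in PC3 against 8.53, 9.07 and 8.36 kb in MDA-MB-231 (0.42 ± 0.07, adjusted p = 5.16e-05). Scaled by the median ratio, 4 AP-1 genes were higher and 4 lower, where 5114 of all 16824 genes tested were higher and 4850 lower. Of 14 YAP and TEAD genes, 1 was higher (7.14%) and 8 lower (57.1%), and 2 and 6 with median-ratio scaling, with TEAD4 at 3.38 ± 0.0788 kb and 6.54 ± 0.301 kb, and the target gene ANKRD1 at 2.25 ± 0.287 kb and 6.66 ± 0.402 kb.

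**Figure D4:**
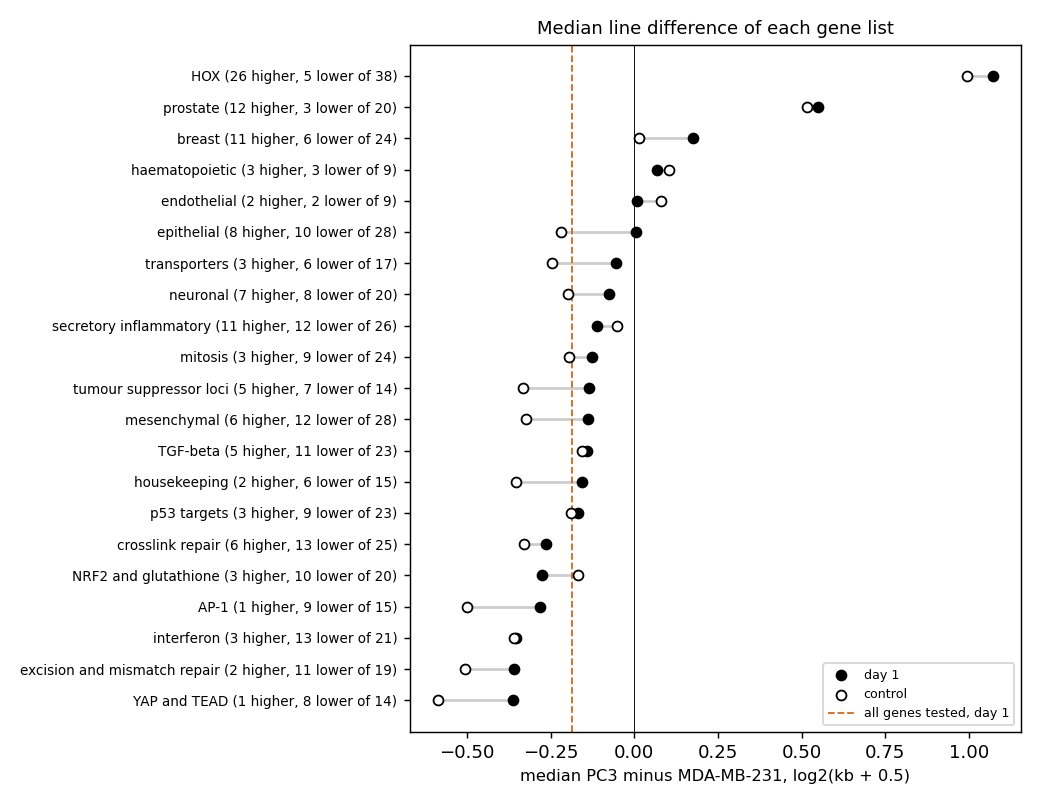
Median PC3 minus MDA-MB-231 difference of 21 gene lists on the log2(kb + 0.5) scale, at day 1 (filled points) and in control (open points), with the number of genes called higher or lower in PC3 at day 1. HOX (1.07) and prostate (0.55) lists lie furthest to the right, and the dashed line marks the median of all genes (-0.19).

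The split of DNA repair, p53 target and mitosis genes depended on the scaling, as it did over all genes. Median-ratio scaling gave 5114 higher and 4850 lower of all 16824 genes tested. Of 25 crosslink repair genes, 6 were higher (24.0%) and 13 lower (52.0%) in PC3 at day 1, against 20.4% and 42.5% of all genes, and with median-ratio scaling 7 were higher and 9 lower. Control gave 3 and 13. FANCI, a core member of the Fanconi pathway, had 1.29, 1.20 and 1.21 kb in PC3 and 3.59, 4.11 and 5.1 kb in MDA-MB-231 at day 1, and 1.41 ± 0.0321 kb and 2.13 ± 0.655 kb in control (interaction -1.01 ± 0.21, limma adjusted p = 0.00796). With the 50000 highest-area peaks its day 1 difference was 0.076. UBE2T, the ubiquitin-conjugating enzyme of that pathway, averaged 1.11 ± 0.0920 kb and 2.85 ± 0.140 kb, and the helicase gene BLM averaged 1.71 ± 0.0780 kb and 3.36 ± 0.354 kb. Of 19 excision and mismatch repair genes, 2 were higher (10.5%) and 11 lower (57.9%), and with median-ratio scaling 3 and 8. ERCC2, a helicase of excision repair, had 2.91, 2.88 and 3.16 kb in PC3 and 9.69, 10.2 and 9.48 kb in MDA-MB-231, against 3.47 ± 0.207 kb and 7.53 ± 0.947 kb in control (interaction -0.55 ± 0.13, adjusted p = 0.0198, 0.0533 without MDA-MB-231 control replicate 2 and 0.16 with unscaled lengths). ERCC1, which cuts at crosslinks, averaged 8.34 ± 0.226 kb and 15.0 ± 0.288 kb, and the nuclease gene ERCC5 averaged 0.708 ± 0.117 kb and 2.69 ± 0.0545 kb. Of 23 p53 target genes, 3 were higher (13.0%) and 9 lower (39.1%), near the shares of all genes, and 4 and 4 with median-ratio scaling, with BAX, a death gene, at 3.55 ± 0.596 kb and 8.07 ± 0.291 kb. Of 24 mitosis genes, 3 were higher (12.5%) and 9 lower (37.5%), also near those shares, and 6 and 7 with median-ratio scaling, with AURKB, a mitotic kinase, at 2.64 ± 0.142 kb and 5.73 ± 0.389 kb, and ANLN, a scaffold of cytokinesis, at 1.74 ± 0.185 kb and 3.68 ± 0.0859 kb. None of these 4 lists held a gene counted as absent from control.

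Across all 21 lists (425 distinct genes tested), 23 genes had a called interaction, 11 of these kept it without each list in turn, and 2 were counted as absent from control. 1 was CCL2, a chemokine that attracts monocytes, on chromosome 17, at 0 in PC3 day 1 lists and all control lists, against 0.276, 0.498 and 0.261 kb in MDA-MB-231 (interaction, limma adjusted p = 0.0158). Each of these values lies below the 500 bp of the filter, which CCL2 passed only through day 10 lists. The other was AKR1C3, an aldo-keto reductase that also makes androgens. It averaged 0.952 ± 0.124 kb in PC3 and 2.02 ± 0.0939 kb in MDA-MB-231 at day 1, and 1.09 ± 0.167 kb and 1.00 ± 0.119 kb in control (interaction -0.88 ± 0.15, adjusted p = 0.00255), while the 50000 highest-area peaks gave an interaction of 0.34. AKR1B10, a related reductase, averaged 4.08 ± 0.489 kb and 2.34 ± 0.542 kb at day 1, and 5.05 ± 0.416 kb and 1.24 ± 0.0722 kb in control (adjusted p = 0.00522, and 0.0838 with unscaled lengths). Of the 20 NRF2 and glutathione genes, 3 were higher (15.0%) and 10 lower (50.0%) in PC3, near the shares of all genes (20.4% and 42.5%). With median-ratio scaling 6 were higher and 6 lower.

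Among 26 secretory inflammatory genes, 11 were higher (42.3%) and 12 lower (46.2%) in PC3, and 11 and 8 with median-ratio scaling. The matrix metalloproteinase genes on 11q were higher. MMP3 averaged 2.94 ± 0.122 kb in PC3 and 0.318 ± 0.0900 kb in MDA-MB-231. MMP10 had 3.98, 3.76 and 3.73 kb in PC3 and 1.26, 1.22 and 1.25 kb in MDA-MB-231 at day 1, and 4.36 ± 0.0367 kb and 0.175 ± 0.157 kb in control, so its difference shrank (interaction -1.56 ± 0.18, limma adjusted p = 0.000101). IGFBP7, a secreted binding protein, also differed less in survivors, at 7.26 ± 0.543 kb and 8.75 ± 0.351 kb against 5.33 ± 0.294 kb and 9.48 ± 0.376 kb in control (interaction 0.52 ± 0.11, adjusted p = 0.00859, and 0.0773 with unscaled lengths). Of 21 interferon and nucleic acid sensing genes, 3 were higher (14.3%) and 13 lower (61.9%), and 4 and 9 with median-ratio scaling, among them CGAS, the sensor of cytosolic DNA, at 1.81 ± 0.0699 kb and 4.21 ± 0.514 kb, and BST2, a restriction factor, at 0.806 ± 0.293 kb and 3.08 ± 0.483 kb. Of 20 neuronal genes, 7 were higher (35.0%) and 8 lower (40.0%), and 9 and 7 with median-ratio scaling. The potassium channel subunit gene DPP6 was at 1.31 ± 0.570 kb and 7.58 ± 1.36 kb. The remaining lists lay near the shares of all genes (20.4% higher and 42.5% lower). TGF-beta genes were 5 higher and 11 lower of 23 (21.7% and 47.8%, and 8 and 5 with median-ratio scaling). Transporters were 3 and 6 of 17 (17.6% and 35.3%, and 5 and 5), and housekeeping genes 2 and 6 of 15 (13.3% and 40.0%, and 3 and 4).

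Peaks of all 18 lists merged into 232138 regions. At day 1, 30088 of these had a peak in all 3 PC3 lists and in no MDA-MB-231 list (13.0%), and 17084 had a peak in all 3 MDA-MB-231 lists and in no PC3 list (7.36%). The control lists gave 30623 (13.2%) and 14804 (6.38%). Of the PC3-specific regions, 55.0% lay between genes and 3.80% at a gene end, against 42.1% and 7.93% of the MDA-MB-231-specific ones and 47.9% and 8.76% of all regions. The same difference was present in control for 19462 of the PC3-specific regions (64.7%) and 8253 of the MDA-MB-231-specific ones (48.3%). No control list of either line had a peak in 3576 (1.54% of all regions) and 4976 (2.14%). Peaks were in all control lists of both lines in 172 (0.0741%) and 54 (0.0233%), and the control difference was turned round in 3 and 1. With 1 region the 3 lists against 3 cannot give a p under 0.1, so regions are counted and not tested.

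Regions open in neither control were low-ranked, and narrower than regions that already differed in control. Their median width was 460 bp in PC3 and 443 bp in MDA-MB-231, against 588 and 650 bp for regions that already differed in control. All regions together had a median of 466 bp, so their width was near that of regions in general. By the authors' peak area, the median percentile within the list was 35.6, 17.7 and 24.4 in the PC3 lists and 34.9, 17.9 and 31.8 in the MDA-MB-231 lists. In lists cut to their 50000 peaks of highest area, 936 PC3 and 1581 MDA-MB-231 regions were open in neither control. Their number also turned on the shortest list of each line, at 8945 without PC3 day 1 replicate 2 and 9488 without MDA-MB-231 day 1 replicate 2. The control lists of each line held fewer peaks than its day 1 lists, and the part of list length in these counts was not tested. The day 10 lists separated the lines here. Their peaks helped to set the region borders, but their presence in a region was not used to choose it. Of the 3576 regions, 2271 (63.5%) were present in all 3 PC3 day 10 lists and 299 (8.36%) in none, whereas of the 4976 regions, 2100 (42.2%) were present in all 3 MDA-MB-231 day 10 lists and 1610 (32.4%) in none. Regions that already differed in control were alike in both lines, with 86.2% and 86.0% in all 3 day 10 lists. PC3 day 10 lists held from 133898 to 165535 peaks and those of MDA-MB-231 from 103830 to 126462, and the part of list length in this was not tested.

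**Figure D5:**
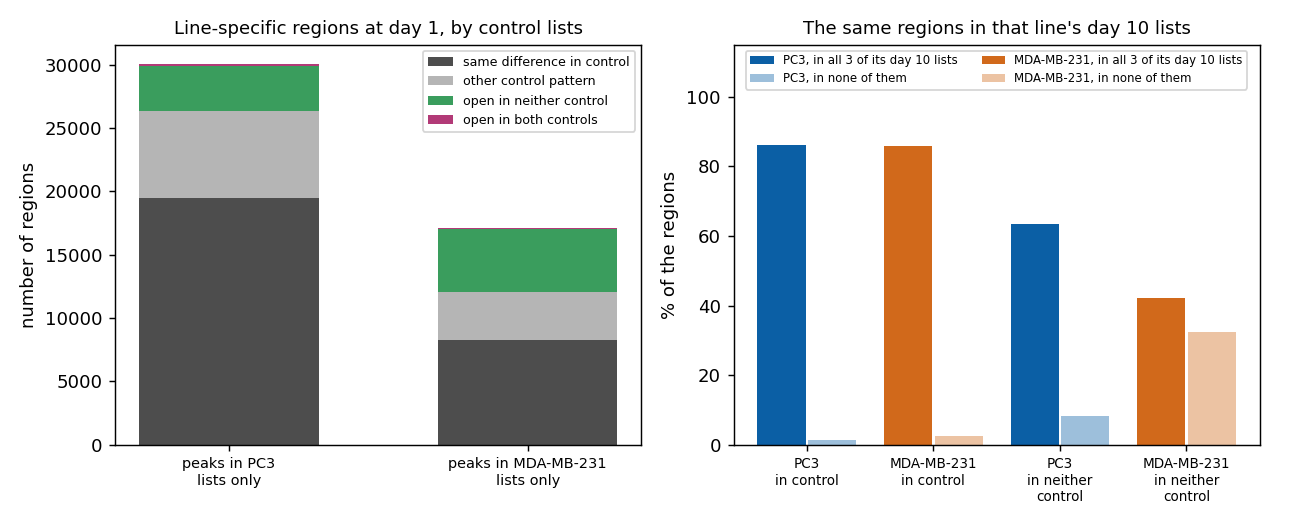
Left, number of regions with peaks in the day 1 lists of 1 line alone, split by the control lists, with the same difference in control for 19462 PC3 and 8253 MDA-MB-231 regions. Right, the percentage of these regions found in all 3 or in none of that line's day 10 lists, where regions open in neither control were absent for 8.36% in PC3 and 32.4% in MDA-MB-231.

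The widest region open in PC3 survivors and in neither control at a gene end was 3265 bp at the end of WNT9A, a secreted WNT ligand gene, on chromosome 1 (227915015 to 227918279). WNT9A as a whole averaged 9.92 ± 1.35 kb in PC3 and 6.01 ± 0.471 kb in MDA-MB-231 (0.67 ± 0.12, limma adjusted p = 0.000126), while the interaction did not pass (0.45, adjusted p = 0.146). A region of 1912 bp lay beside ATF3 (212621623 to 212623534), and 1 of 1872 bp covered the start of SSTR1, a somatostatin receptor gene, on chromosome 14 (38207374 to 38209245). All 3 regions were in the 3 PC3 day 10 lists. SSTR1 averaged 2.29 ± 0.194 kb in PC3 and 0.149 ± 0.130 kb in MDA-MB-231 at day 1, and its PC3 control lists held 1.03, 0.811 and 1.03 kb elsewhere in the window. In MDA-MB-231 survivors the widest were 2747 bp at CREB3 and GBA2 on chromosome 9, 2662 bp at SLC7A5, which encodes the large neutral amino acid transporter, on chromosome 16 (87827152 to 87829813), 2559 bp at VSIR, an immune checkpoint gene, and 2556 bp at NTMT1. Of these 4, VSIR's region was in 1 MDA-MB-231 day 10 list and the other 3 were in none. SLC7A5 averaged 7.27 ± 0.902 kb and 12.6 ± 0.641 kb at day 1, and 6.70 ± 0.111 kb and 9.96 ± 1.01 kb in control, and its interaction did not pass (-0.23, adjusted p = 0.466).

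Promoters, taken as 250 bases before to 50 after the first start that RefSeq lists for each of 15812 protein-coding genes, were counted whether or not any list had a peak there. At day 1, 358 had a peak in the 3 PC3 lists alone (2.26%) and 518 in the 3 MDA-MB-231 lists alone (3.28%), against 341 (2.16%) and 527 (3.33%) in control, and 254 of the 358 and 391 of the 518 had the same difference in control. Open in neither control were 22 in PC3 (0.139%) and 38 in MDA-MB-231 (0.24%). The 22 include SSTR1, GDNF, TNFRSF19 (a TNF receptor family gene), the neural adhesion genes SLITRK3, TENM3 and NLGN4X, and SLFN11, whose product blocks replication in damaged cells and which is known as a marker of sensitivity to platinum drugs. All 22 lacked a peak in every MDA-MB-231 day 10 list, and 13 had one in all 3 PC3 day 10 lists, SSTR1 and SLFN11 among them. Over its whole window SLFN11 had 0.732, 0.984 and 0.879 kb in PC3 and 1.20, 1.21 and 1.32 kb in MDA-MB-231 at day 1, where the difference did not pass (limma adjusted p = 0.171), and 0 kb in the 3 PC3 control lists. The 38 include the somatostatin receptor gene SSTR3, the chemokine receptor gene CCR2, the cytokine gene TNFSF14, the iron hormone gene HAMP, the nuclear receptor gene NR1I3 and the neuronal kinase gene DCLK1. Of these 38, 18 were in all 3 MDA-MB-231 day 10 lists and 11 in none.

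The promoters that were open in neither control had fewer CG pairs than most. The median count of CG in the 300 bases was 6.5 in the 22 and 5.0 in the 38, against 22.0 in all promoters, and the median GC content was 50.8% and 54.0% against 62.7%. The AP-1 motif TGANTCA, searched on both strands, was in 1 of the 22 (4.55%) and in 9 of the 38 (23.7%), and in 5.76% of all promoters. The GC box GGGCGG, which does not overlap the AP-1 motif, was in 5 of the 22 (22.7%) and 11 of the 38 (28.9%), against 58.5% of all. The motif CACCTG, which ZEB and SNAI repressors bind, was in 4 and 12 (18.2% and 31.6%, against 19.9%), and the NF-kB motif was in none of either set (2.56% of all). These are counts of letters in small sets and not binding.

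The sequences of 2 promoters from each set are shown 5′ to 3′ on the gene's strand, from RefSeq (GRCh38.p14), because they mark where a survivor of 1 line had a peak that no other day 1 or control list had. Capitals mark the AP-1 motif or the GC box on either strand. SSTR1 (chr14:38207654-38207953, plus strand) and SLFN11 (chr17:35373572-35373871, minus strand) were open in PC3. CCR2 (chr3:46353861-46354160, plus strand) and DCLK1 (chr13:36131890-36132189, minus strand) were open in MDA-MB-231.
SSTR1: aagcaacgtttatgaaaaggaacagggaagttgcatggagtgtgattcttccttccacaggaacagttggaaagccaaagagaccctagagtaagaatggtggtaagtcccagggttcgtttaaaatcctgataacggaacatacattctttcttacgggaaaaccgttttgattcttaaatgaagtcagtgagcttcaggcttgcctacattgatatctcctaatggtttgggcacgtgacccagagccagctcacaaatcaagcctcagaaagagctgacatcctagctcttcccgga
SLFN11: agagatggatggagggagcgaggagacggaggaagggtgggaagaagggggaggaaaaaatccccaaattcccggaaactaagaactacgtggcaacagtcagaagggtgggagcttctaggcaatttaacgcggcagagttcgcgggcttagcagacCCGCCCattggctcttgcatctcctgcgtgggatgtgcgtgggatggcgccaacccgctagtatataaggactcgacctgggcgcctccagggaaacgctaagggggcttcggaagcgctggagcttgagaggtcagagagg
CCR2: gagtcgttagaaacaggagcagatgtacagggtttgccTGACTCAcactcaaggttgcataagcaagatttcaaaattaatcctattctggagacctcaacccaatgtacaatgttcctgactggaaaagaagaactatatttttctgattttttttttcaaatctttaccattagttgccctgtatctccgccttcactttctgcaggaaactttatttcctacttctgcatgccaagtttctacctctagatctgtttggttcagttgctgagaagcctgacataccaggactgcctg
DCLK1: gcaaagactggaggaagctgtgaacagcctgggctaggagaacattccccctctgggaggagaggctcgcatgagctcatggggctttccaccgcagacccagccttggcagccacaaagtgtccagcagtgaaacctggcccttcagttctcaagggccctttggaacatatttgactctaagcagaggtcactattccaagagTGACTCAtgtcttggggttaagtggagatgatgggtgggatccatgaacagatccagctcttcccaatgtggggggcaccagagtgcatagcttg
SSTR1 holds neither motif and SLFN11 holds 1 GC box, in the letters of the other strand. CCR2 and DCLK1 each hold 1 AP-1 motif, written TGACTCA in both. DCLK1 as a whole averaged 4.08 ± 0.845 kb in PC3 and 7.00 ± 0.438 kb in MDA-MB-231 at day 1 (-0.73 ± 0.15, limma adjusted p = 0.00037), against 3.81 ± 0.269 kb and 5.11 ± 0.421 kb in control.

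A last set lost a peak that both controls had. 10 promoters had peaks in all 6 control lists and all 3 MDA-MB-231 day 1 lists and in none of the PC3 day 1 lists (0.0632%), and none of the 10 had a peak in a PC3 day 10 list. They include FST, which encodes follistatin, an inhibitor of activins, PDGFA, a platelet-derived growth factor, FOXA3, an endoderm factor, PFKP, a phosphofructokinase, and SHLD3, a shieldin subunit that limits the cutting back of broken DNA ends. SHLD3 shares its start with TRAPPC13 in the RefSeq table, so the same 300 bases count for both. The opposite, a peak lost in MDA-MB-231 survivors, held for 4 promoters (0.0253%), those of RTN4, SIGIRR, GPR176 and PLIN4. FST had 1.42, 1.52 and 1.5 kb in PC3 and 3.75, 3.50 and 3.23 kb in MDA-MB-231 at day 1 over its whole window, and 2.61, 2.26 and 2.52 kb in PC3 control, so each PC3 survivor list lay below each PC3 control list (day 1 difference -1.01 ± 0.23, limma adjusted p = 0.00124, and interaction -0.26, adjusted p = 0.735). SHLD3 averaged 0.559 ± 0.123 kb in PC3 and 1.48 ± 0.155 kb in MDA-MB-231 at day 1, and 1.17 ± 0.0695 kb and 1.98 ± 0.0178 kb in control (-0.90 ± 0.13, adjusted p = 1.71e-05, and interaction -0.34, adjusted p = 0.358). Neither interaction passed, so a fall in covered length over these windows is not shown to be particular to PC3. The promoters of FST (chr5:53480379-53480678, plus strand) and SHLD3 (chr5:65624777-65625076, plus strand) are shown with the same marking.
FST: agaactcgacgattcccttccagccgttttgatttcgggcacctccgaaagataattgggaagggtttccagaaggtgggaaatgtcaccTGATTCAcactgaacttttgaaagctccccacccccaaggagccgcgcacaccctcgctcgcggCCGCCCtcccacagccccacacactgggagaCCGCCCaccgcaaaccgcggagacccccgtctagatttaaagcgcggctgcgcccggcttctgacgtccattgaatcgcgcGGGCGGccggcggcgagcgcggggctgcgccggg
SHLD3: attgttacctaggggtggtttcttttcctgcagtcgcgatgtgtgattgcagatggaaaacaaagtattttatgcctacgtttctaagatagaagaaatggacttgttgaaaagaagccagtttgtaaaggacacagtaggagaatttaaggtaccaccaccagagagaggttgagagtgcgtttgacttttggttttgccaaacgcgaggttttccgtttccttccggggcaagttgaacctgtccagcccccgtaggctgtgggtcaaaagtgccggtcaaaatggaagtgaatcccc
FST holds 1 AP-1 motif and 3 GC boxes, and SHLD3 holds neither.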

How the data were processed

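ATAC-seq was done on 54 samples, and the deposited data are 18 peak lists, 1 per biological replicate. Per the submitters' processing notes, the tools were Genrich 0.6.2, SAMtools 1.6, Bowtie2 2.3.5.1, FastQC 0.12.1, Picard and R 4.4.1, with GRCh38 (hg38) as build. The step from each trio of experimental replicates to 1 list is not given in the labels or list headers used here. Groups were read from the line, state and replicate number in the list names. Each list has a start and an end per peak, a deposited score in column 7, read here as peak area (lowest value 200), and a deposited -log10 p-value in column 8, which was not used. Areas rank peaks within a list only. Depth is unknown.

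Chromosomes 1 to 22 and X were analysed, with gene positions from RefSeq GRCh38.p14 (19974 protein-coding genes, no strand). Covered length per gene was scaled to the mean total, and a gene needed 500 bp or more in 3 or more lists. Using limma 3.58.1 (R 4.3.3), all 6 groups entered 1 fit of log2(length + 500 bp) with a variance trend and 12 residual degrees of freedom. The fit was tested on simulated data. Other values came from Python 3.11.15. A list held a region if any of its peaks touched it by 1 bp or more. Neighbouring genes share peaks. Promoters of 4048 genes had more than 1 listed start, and the first was used.

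Comparisons, gene lists and members were chosen with earlier results of these data known. Named genes are up to 10 per direction with the largest interaction among genes absent from control whose day 1 lists do not overlap, up to 5 per direction with the largest day 1 difference, up to 4 per list by day 1 p, and up to 8 per line at the widest regions open in neither control, and the text gives a selection. Of the first 20, 7 lost the interaction call without at least 1 list, and 5 of these are not described. Alternatives were other peak sets, scalings, pseudocounts, filters, windows and overlaps, a replicate block and leaving out each list. KLK11, PGR, CCL2, IGFBP7, CNTNAP2, CDKN2A and the genes of the promoters shown fall outside that rule and, like those marked in the text, were chosen after their values were seen.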

Additional observations from a re-analysis of the deposited data

Results flagged for a closer look

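The line difference itself differed between survivors and control, by the test of the interaction, in 312 genes in the positive and 579 in the negative direction. The limma adjusted p-values below are those of the interaction. Positive interactions were those of FGF10 (0.000758), TCHHL1 (0.000356), PABPC4 (0.0149), FAM124B (0.0149), CASP10 (0.00152), SRSF2 (0.00152) and IGFBP7 (0.00859).

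Negative interactions that were absent from control were those of CNPY1 (8.35e-06), DNAH9 (8.11e-05), OPN1SW (0.0062), SLC22A12 (0.0228), KRTAP10-12 (8.67e-05), CMYA5 (0.0198), RCVRN (0.00117), CLSTN2 (0.000536), FGF2 (0.000906), C1S (0.000596), LAMP1 (0.00424), AKR1C3 (0.00255) and CCL2 (0.0158). Negative interactions of genes that also differed in control were those of MACROD2 (0.000101), CNTNAP2 (0.000813), NRXN3 (0.00335), PKP1 (0.0175), KLK4 (0.000221), KLK11 (0.00463), MMP10 (0.000101), AKR1B10 (0.00522), PGR (0.0117), FANCI (0.00796) and ERCC2 (0.0198).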

How the results depend on the processing

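The cause of each change below was not tested, beyond the peaks or lists that a setting leaves out. In lists cut to their 50000 peaks of highest area, positive and negative interactions numbered 187 and 266, genes lower in PC3 in control 4800, PC3-specific regions 11289 (7595 already in control, 936 in neither) and MDA-MB-231-specific ones 11033 (1581 in neither control, 273 in both), and the covered length difference was 0.397 Mb, against 8.81 Mb. With the upper part of each list by area (from its median up), PC3-specific regions were 15499 (9894 already in control, 2055 in neither, 48 in both) and MDA-MB-231-specific ones 9272 (4834 and 2319). Unscaled lengths gave 180 and 225 interactions, 62 genes lower in PC3 and absent from control, and 4735 genes lower at day 1. Relative to the chromosome arm, 4606 genes were lower at day 1 and 4851 in control, and with median-ratio scaling 4928 were lower in control. With the highest-area peaks, day 1 differences reversed for CNPY1 (0.95), CLSTN2 (0.92) and FANCI (0.076), and interactions for CLSTN2 (0.61), FANCI (0.043) and AKR1C3 (0.34). The IGFBP7 day 1 difference reversed relative to the arm (0.076).

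Leaving out each of the 12 day 1 and control lists in turn, positive interactions numbered from 164 to 384 and negative ones from 368 to 599. Genes absent from control numbered from 28 to 72 (higher in PC3) and from 81 to 150 (lower). PC3-specific regions open in neither control ran from 3577 to 8945 and those open in both from 172 to 343, and MDA-MB-231-specific ones from 4983 to 9488 and from 54 to 208. The day 1 difference in median peak width ran from -43.2 to 54.3 bp, at -43.2 without PC3 day 1 replicate 2 or MDA-MB-231 day 1 replicate 1 and -0.167 without PC3 day 1 replicate 3.

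Deviations from the group mean of day 1 lists with the same replicate number correlated between the lines at r = 0.178, 0.190 and 0.0476. Between day 1 and control they correlated at 0.389, 0.235 and 0.193 in MDA-MB-231 but at 0.0999, -0.0444 and 0.00525 in PC3, so the numbers met the bar of 0.1 for each pair in MDA-MB-231 and in no other comparison. With the replicate as a block, 84 genes were higher and 159 lower in PC3 and absent from control, and interactions numbered 435 and 687. Depth is unknown, so absence of a peak is absence at the authors' threshold.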
